A study of Saccharomyces cerevisiae with 2 samples.

Results

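The sulfate uptake and assimilation genes of budding yeast are 10 genes that bring inorganic sulfate into the cell, reduce it to sulfide, or switch that pathway on. They were chosen by name from the annotation of the array, with earlier results of these data known. All 10 of them were found among the 5449 Saccharomyces cerevisiae genes measured, each read by 1 probe set. SUL1 and SUL2 are the sulfate permeases. MET3, MET14 and MET16 encode the enzymes that activate sulfate and reduce it to sulfite. MET5 and MET10 encode the subunits of sulfite reductase, and MET28, MET31 and MET32 encode transcriptional regulators of the pathway.

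Transcript levels came from 1 culture given the mating pheromone alpha factor and 1 mock-treated culture. The first received 50 ng/ml of alpha factor in rich medium at 30 °C for 3 hours, after which about 90% of its cells had mating projections. The sources used here do not say how the mock culture was grown, so a difference in growth between the cultures and the effect of the pheromone cannot be told apart. Both cultures were of 1 a-type strain in the S288c background that carried bar1Δ::KanMX, met15Δ0, his3Δ1, leu2Δ0 and ura3Δ0. The lost BAR1 is the protease that would degrade alpha factor. The deletion of MET15, now named MET17, lies inside the pathway described here: its enzyme joins sulfide to O-acetylhomoserine, so both cultures lacked the step that takes up the sulfide made from sulfate, and strains of this kind are known to need a supply of organic sulfur. Each culture gave 1 RNA sample on 1 Affymetrix Yeast 2.0 array. Values are log2 expression levels, and differences are alpha factor minus mock. With 1 array per condition no difference could be tested and no replicate error was available, so precision is limited by how few arrays there are.

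Sulfate that enters through Sul1 and Sul2 is activated by ATP sulfurylase (Met3) to adenosine phosphosulfate, phosphorylated by its kinase (Met14) to PAPS, reduced to sulfite by PAPS reductase (Met16) and then to sulfide by sulfite reductase (Met5 and Met10). Transcription of these genes depends on the activator Met4, which does not bind DNA by itself and is brought to promoters by Cbf1 with Met28 and by the related zinc-finger proteins Met31 and Met32. The ubiquitin ligase SCF-Met30 restrains Met4 when organic sulfur compounds are plentiful, so the pathway is known as one that is repressed by methionine and cysteine.

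A background level was taken from probe sets for another species. Probe sets for the fission yeast S. pombe, 1746 in number, were taken to match no transcript here, which was not tested, and their 95th percentile, 5.49 in the alpha-factor array and 5.50 in the mock array, served as the background level. Of their log2 differences, 95% lay between -0.38 and 0.35, which describes signal near background and not the spread between cultures. Calls of higher or lower needed a difference of at least 2-fold and a level over background in either array, and 5337 genes met the level condition. MET17 stood at 5.46 with alpha factor and 5.48 in mock, below background in both. BAR1, URA3 and LEU2 were also below background in both arrays, while HIS3 was at 12.21 with alpha factor and 11.80 in mock; the part of HIS3 that its probe set reads was not examined. The pheromone response separated the arrays in the direction of their labels. All 6 response markers were past the 2-fold rule, with levels of 13.32 to 14.31 with alpha factor and 8.41 to 11.44 in mock, and differences of 1.88 for FUS3, 2.73 for FUS1, 2.78 for KAR4, 4.57 for FUS2, 5.13 for PRM1 and 5.90 for FIG1. The 5 a-cell markers STE2, MFA1, MFA2, STE6 and AGA2 ran from 12.15 to 14.64 with alpha factor and from 11.97 to 13.97 in mock, with differences of 0.18 to 1.27, of which that of AGA2 was past 2-fold. Among the 4 alpha-cell markers, whose levels ran from 5.93 to 9.91 with alpha factor and from 5.85 to 9.53 in mock, STE3 differed by 1.76, MF(ALPHA)2 by 2.28, SAG1 by 0.38 and MF(ALPHA)1 by 0.08. Their part in the sulfate gene values was not tested. In 7 control transcripts of the yeast, the change of the 3' minus 5' signal had a median of 0.03. It ran from -0.52 for TDH1 to 0.27 for EAF5. For 25S ribosomal RNA that signal was 2.72 with alpha factor and 7.94 in mock. Whether RNA quality plays a part in the differences below was not tested.

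Sulfate genes leaned towards higher levels in the alpha-factor culture, by modest amounts. By the 2-fold rule, SUL1 and MET28 were higher and none of the 10 genes was lower. The same rule called 5.51% of all genes above background higher and 3.78% lower. With a lower limit of 1.5-fold, 5 of the 10 were higher and none was lower, beside 12.1% higher and 10.7% lower over all genes. Differences above 0 were found for 9 of the 10 genes and for 45.8% of all genes. The median difference of the 10 was 0.55, against -0.03 over all genes above background. In the ranking of all these genes by their difference, 7 of the 10 were in the upper 25%. Because the 10 genes were chosen with earlier results of these data known, these counts describe them and are no independent support. In total RNA from whole cultures, more cells with a transcript and more transcript per cell cannot be told apart.

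**Figure D1:**
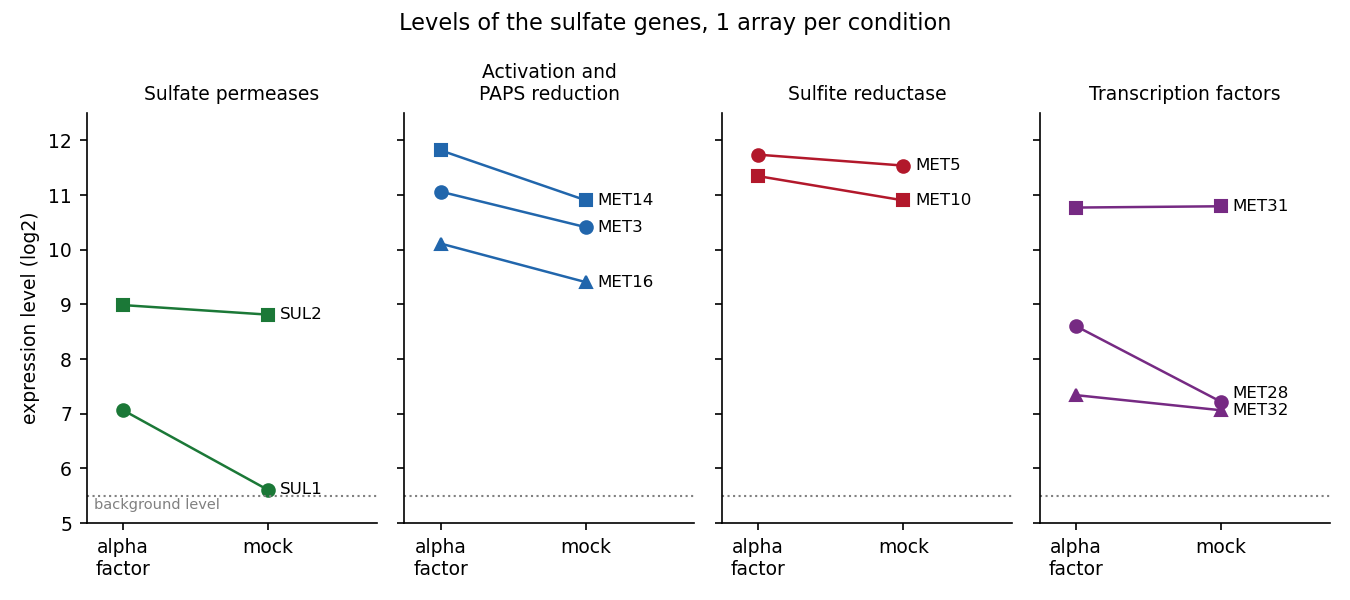
Expression level (log2, vertical axis) of each sulfate gene in the alpha-factor array and the mock array, with 1 panel per role and 1 point per array. Lines join the values of 1 gene, and the dotted line is the background level of 5.50. SUL1 and MET28 have the steepest lines, the line of MET31 is flat, and SUL1 in mock lies just above background.

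The permeases differed from each other. SUL1, a high-affinity sulfate permease, had a level of 7.07 with alpha factor and 5.61 in mock, a difference of 1.46 or 2.75-fold. Its mock level was only just above the background level of 5.50, so that its transcript was close to the limit of detection without pheromone. Against a stricter background of 6.18, the 99th percentile of the S. pombe probe sets in mock, SUL1 would have only a bound there and be at least 1.85-fold higher. Its difference stood at percentile 97.3 of the genes above background. Dim genes scatter more widely: of 122 other genes whose mean level lay within 0.5 of that of SUL1, 11 (9.02%) were past the 2-fold rule on the higher side, and 7 had a difference at least as large as that of SUL1. SUL2, the second permease, was at 8.99 with alpha factor and 8.81 in mock, a difference of 0.17, which is within the range of the S. pombe probe sets. The difference of SUL1 exceeded that of SUL2 by 1.29 on the log2 scale as deposited, by 0.88 with a pseudocount of 32, and by at least 0.72 when SUL1 in mock was set at the stricter background.

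Genes of the 3 enzymes that turn sulfate into sulfite lay in a narrow band, from 1.57-fold to 1.88-fold higher with alpha factor, and none of them passed the 2-fold rule. MET14, the APS kinase gene, was at 11.82 with alpha factor and 10.90 in mock, a difference of 0.91. Of its neighbours in level, 65 of 1134 genes (5.73%) had a difference at least as large. MET16, the PAPS reductase gene, was at 10.11 with alpha factor and 9.41 in mock, a difference of 0.71, and MET3, the ATP sulfurylase gene at the entry of the pathway, was at 11.06 with alpha factor and 10.41 in mock, a difference of 0.65. At like level, 110 of 1019 genes (10.8%) had a difference at least as large as that of MET16. For MET3 these were 128 of 1315 (9.73%). The highest and the lowest of these 3 differences were 0.26 apart, and each of them exceeded the S. pombe range, which describes signal near background. They ranked at percentiles 93.5, 90.3 and 89.2 of all genes for MET14, MET16 and MET3.

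Sulfite reductase, the siroheme enzyme that carries out the last reduction, showed smaller values. MET10, its alpha subunit, was at 11.35 with alpha factor and 10.90 in mock, a difference of 0.44 or 1.36-fold. MET5, its beta subunit, was at 11.74 with alpha factor and 11.54 in mock, a difference of 0.20 or 1.15-fold. The value of MET5 lay within the S. pombe range, and that of MET10 just outside it. At like level, 196 of 1232 genes (15.9%) had a difference at least as large as that of MET10. For MET5 these were 273 of 1013 (26.9%). Along the route from permease to sulfide, the differences of the enzymes were thus above those of sulfite reductase for each of MET3, MET14 and MET16, an order among 5 genes for which no error is available.

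**Figure D2:**
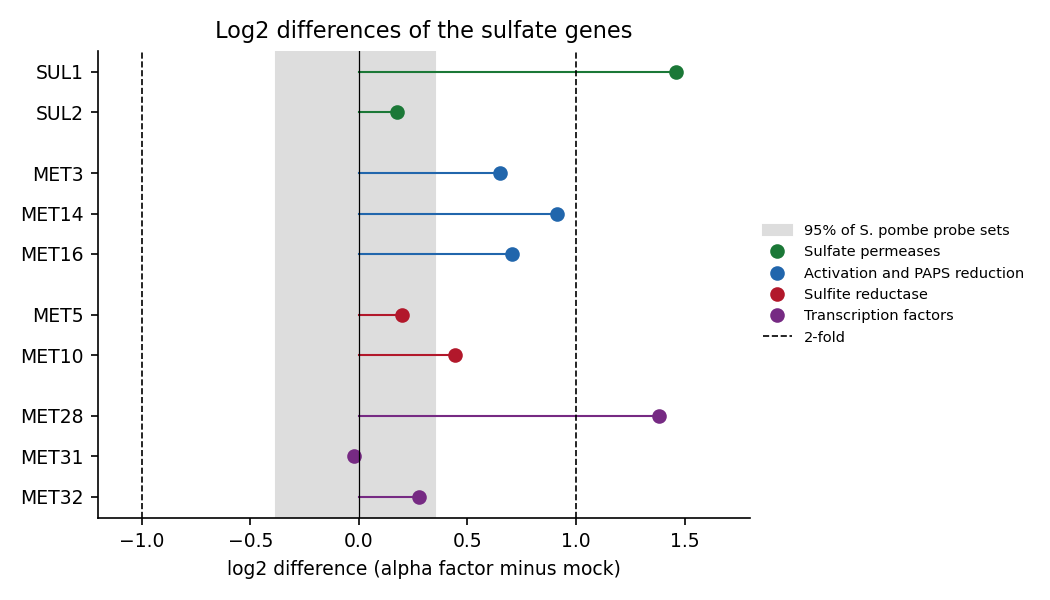
Log2 difference (alpha factor minus mock, horizontal axis) of each sulfate gene, grouped by role. The grey band holds 95% of the S. pombe probe sets, from -0.38 to 0.35, and the dashed lines mark 2-fold. That band describes signal near background and not the spread between cultures. SUL1 and MET28 lie past the 2-fold line, MET3, MET14, MET16 and MET10 lie between it and the band, and SUL2, MET5, MET31 and MET32 lie inside the band.

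Of the 3 regulators among the 10, MET28 had the largest difference. MET28, a leucine-zipper cofactor that joins Cbf1 and Met4 on DNA, was at 8.60 with alpha factor and 7.22 in mock, a difference of 1.38 or 2.61-fold. Both of its levels were well clear of background. Of 306 other genes at like level, 24 (7.84%) were called higher and 16 (5.23%) had a difference at least as large as that of MET28. MET32, a zinc-finger factor, was at 7.34 with alpha factor and 7.06 in mock, a difference of 0.28. MET31, its paralogue, was at 10.77 with alpha factor and 10.79 in mock, a difference of -0.02, whose sign turned to above 0 when the median of either species was set to 0 or a loess curve was removed. Neither zinc-finger gene differed by more than the S. pombe range, and their differences were 0.30 apart.

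**Figure D3:**
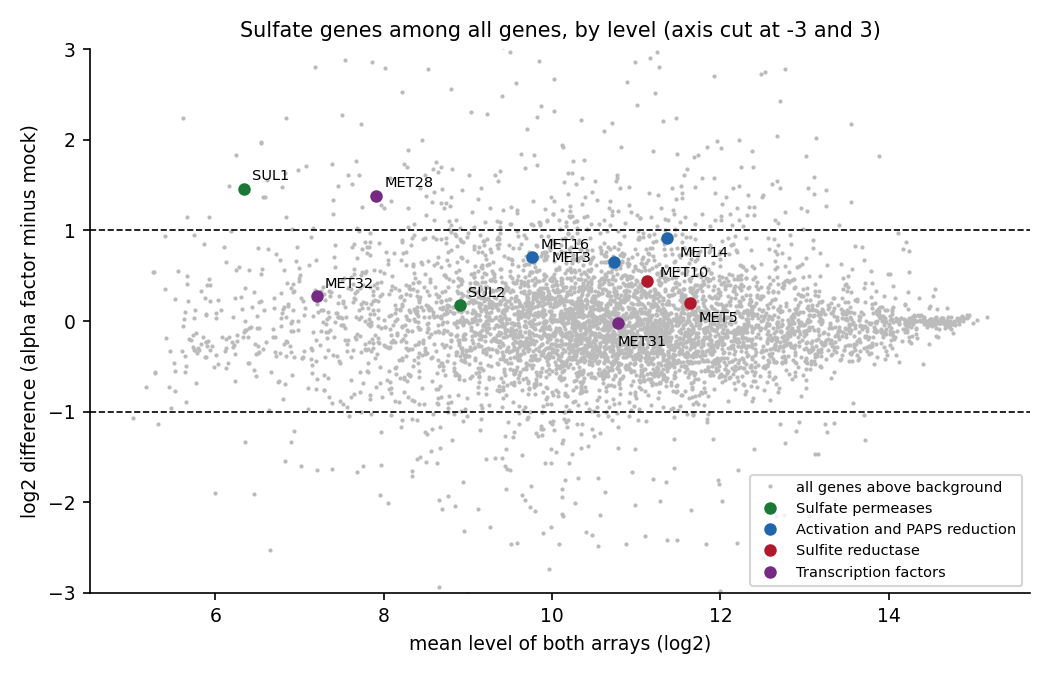
Log2 difference (alpha factor minus mock, vertical axis) against the mean level of both arrays (log2, horizontal axis), with all genes above background in grey and the sulfate genes in colour by role. The dashed lines mark 2-fold. SUL1 and MET28 lie past the line at the dim side of the plot, and MET14 lies just under it.

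The rest of sulfur metabolism was examined through 5 lists with 44 measured genes, of which 43 were above background. None was higher by 2-fold or more and 1 was lower, and 21 had a difference above 0. Over all genes above background those shares were 5.51%, 3.78% and 45.8%. The median difference was 0.55 for the 10 sulfate genes, against -0.02 for these 43 and -0.03 for all genes. At 1.5-fold, 3 of the 43 were higher and 4 were lower, beside 12.1% higher and 10.7% lower over all genes.

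Genes that serve sulfate reduction from outside the route itself stayed close to 0. None of 6 genes for siroheme and reductant supply reached 2-fold, and their median difference was 0.07. MET1, which makes the siroheme precursor, differed by 0.27, and MET8, which completes siroheme, by -0.23. MET22, the phosphatase that removes the by-product of PAPS reduction, differed by 0.13, and TRR1, the thioredoxin reductase gene, by -0.11. Differences of the upstream regulators ran from -0.63 to 0.24. The list held 8 genes, for Met4, its partners, its ubiquitin ligase and a further transcription factor, Gcn4. None of the 8 reached 2-fold and the median was 0.00. CBF1, the DNA-binding partner of Met28, was at 8.98 with alpha factor and 9.61 in mock, a difference of -0.63, opposite in sign to that of MET28. CDC53 differed by 0.24, SKP1 by 0.11 and CDC34 by -0.18, all of them genes of the SCF pathway. MET4 at -0.17, MET30 at 0.02 and GCN4 at -0.02 were named for their role after their values were seen.

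The list for the steps after sulfide, which also held genes that supply O-acetylhomoserine, such as MET2 and HOM3, ran from -0.16 to 0.65. Of 9 genes of homocysteine, cysteine and methionine synthesis above background, none reached 2-fold, and the median was 0.08. STR3, a cystathionine beta-lyase, was at 9.20 with alpha factor and 8.55 in mock, a difference of 0.65, and MET2, which makes the O-acetylhomoserine that the missing Met17 would use, was at 8.98 with alpha factor and 8.49 in mock, a difference of 0.49. CYS4, the cystathionine beta-synthase gene, differed by -0.16 and HOM3, the aspartate kinase gene, by -0.14. In the methyl cycle and its folate branch, 7 of 9 genes had a difference below 0, none reached 2-fold and the median was -0.19. Over all genes above background, 2879 of 5337 had a difference below 0. SAM2 and SAM1, which encode the S-adenosylmethionine synthetases, differed by -0.46 and -0.37, while MET7, a folate polyglutamate synthetase gene, differed by 0.21 and ADO1, the adenosine kinase gene, by 0.03.

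Uptake of organic sulfur, a list that also holds the enzyme genes JLP1 and BDS1, was the only one of the 5 lists with a gene past 2-fold. Its differences spread in both directions, with those enzyme genes at the upper end. OPT1, a transporter of glutathione and oligopeptides, was at 9.27 with alpha factor and 11.03 in mock, a difference of -1.76. It was the 1 lower gene among 11, beside 3.78% lower over all genes. MMP1, the S-methylmethionine permease gene, was at 9.80 with alpha factor and 10.69 in mock, a difference of -0.89. SAM3, the S-adenosylmethionine permease gene, differed by -0.73 and was named after its value was seen. JLP1, an enzyme that frees sulfite from sulfonates, was at 7.60 with alpha factor and 6.67 in mock, a difference of 0.93. BDS1, a sulfatase, was at 9.82 with alpha factor and 8.91 in mock, a difference of 0.91. The values of JLP1, BDS1 and MET14 were thus close together, and all 3 missed the 2-fold rule.

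For comparison with the rest of amino acid synthesis, 30 genes of other routes were read in the same way. Of these, 2 were higher by 2-fold or more and 1 was lower, 14 had a difference above 0, and the median was -0.04. The higher genes were ARG4, argininosuccinate lyase, at 12.90 with alpha factor and 11.73 in mock, and LYS1, saccharopine dehydrogenase, with a difference of 1.02. The lower gene was LYS20, a homocitrate synthase gene, at 10.80 with alpha factor and 12.10 in mock, and TRP4 differed by -0.44. The difference between the sulfate genes and these lists was not tested, since 1 array per condition gives no error for it.

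**Figure D4:**
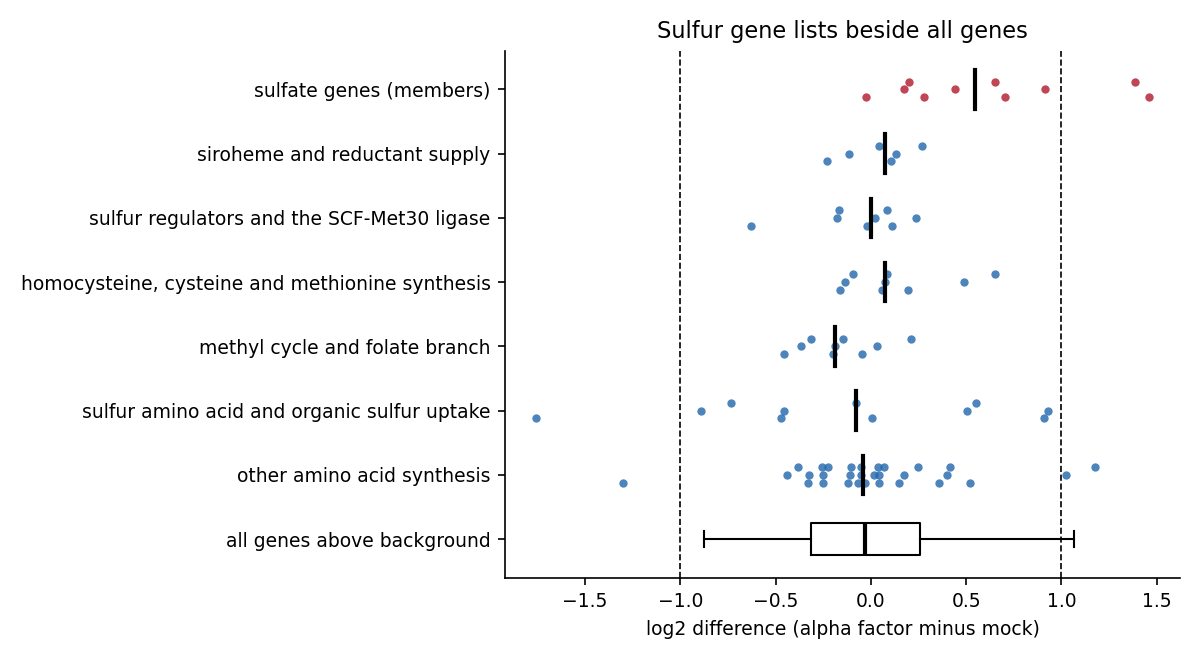
Log2 difference (alpha factor minus mock, horizontal axis) of each gene above background, by list, with 1 point per gene and a black bar at the median of the list. The bottom row shows all genes above background as a box of the quartiles with whiskers at the 5th and 95th percentiles, and the dashed lines mark 2-fold. The sulfate genes have a median of 0.55, and the other lists have medians from -0.19 to 0.08.

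The genes on either side of each sulfate gene in the RefSeq annotation of assembly R64 were read to see whether a difference was shared along the chromosome. This reading was added after the data were seen. Of 20 flanking genes, 19 were measured and above background, with a median difference of -0.03. Of these 19, the 2-fold rule called 1 higher, beside 5.51% higher over all genes. That gene was PCA1, a P-type cation-transporting ATPase gene next to SUL1. It was at 11.19 with alpha factor and 9.76 in mock, so that the difference was 1.46 for SUL1 beside 1.43 for PCA1, while VBA2 on the other side of SUL1 differed by 0.07. These values were close only without a pseudocount: with 32 added before the logarithm, SUL1 differed by 1.04 and PCA1, which is far above background, by 1.39. The flanking genes of MET28, YIR016W and YAP5, differed by 0.18 and -0.31. SUL2 differed by 0.17, between its neighbours NYV1 at 0.63 and GEP5 at -0.30. MET14 differed by 0.91, with its neighbours DID4 at 0.57 and VPS1 at -0.03. MET32 differed by 0.28, and both of its neighbours, BTT1 and CHL4, by -0.39. Both neighbours of MET16 were near 0, MRP2 at -0.09 and NUT2 at -0.06.

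**Figure D5:**
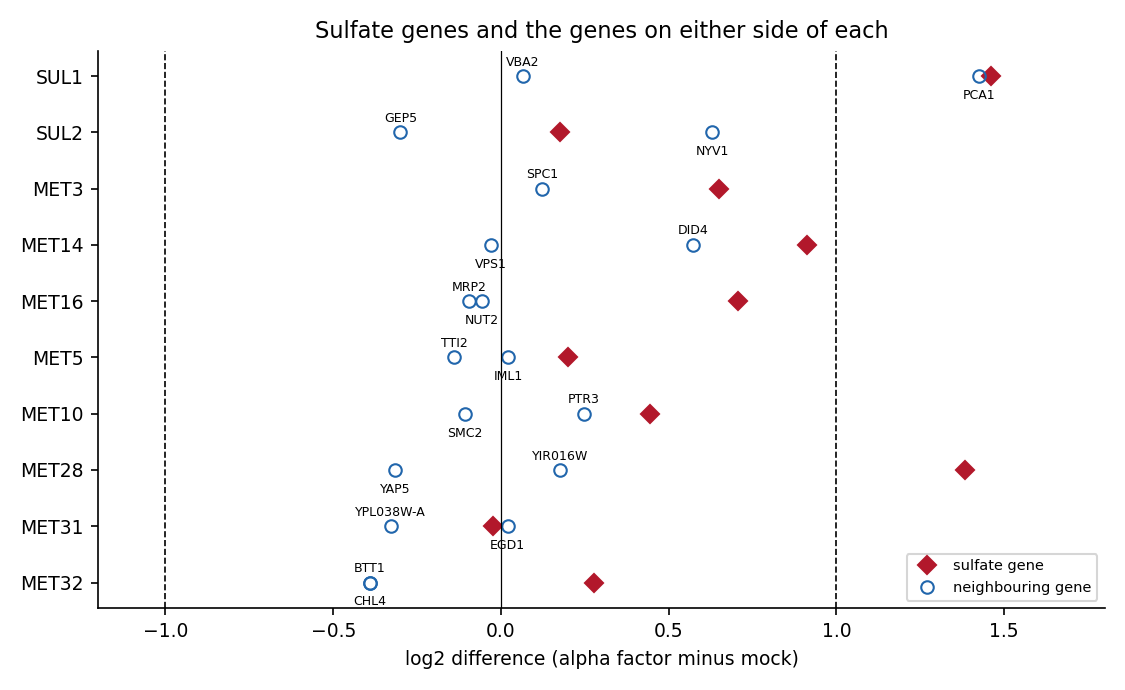
Log2 difference (alpha factor minus mock, horizontal axis) of each sulfate gene (filled diamond) and of the measured genes on either side of it (open circles). The dashed lines mark 2-fold. PCA1 is at 1.43 and SUL1, which is dim in mock, at 1.46, while the genes beside MET28 lie at 0.18 and -0.31.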

How the data were processed

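The deposited table holds 1 value per probe set for 10928 probe sets in 2 arrays, taken as log2 expression values because they run from 3.32 to 15.19. Per the labels and processing notes, the authors analysed the arrays with affy from Bioconductor. The version of affy and its settings for background, normalization and probe summary are not stated in the sources used here. The sorted columns differ by at most 0.092, so a change in total mRNA would not show. Groups came from the sample titles, because the mock sample's description calls it arrested, against its title and source name.

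Genes were named from the platform annotation, matched by gene ID to RefSeq assembly R64: 5498 probe sets were S. cerevisiae and 1746 with other gene IDs were taken as S. pombe, 1 named several genes and 3683 were unnamed here. No genome build is given for the values, so no coordinates are printed. Probe sets of 1 gene were averaged. A percentile ranks a gene's difference among genes above background. Genes at like level are those with a mean level within 0.5. Genes named are all 10 sulfate genes, the deleted genes and markers, and of each other list the genes past 2-fold and the 2 largest and 2 lowest differences. The sulfate genes and lists were chosen with earlier results of these data known. There was no test, p-value or standard error. Genes with 2 probe sets, 45 in all, gave a per-probe-set SD of 0.40 for the difference, which is no replicate error. The calling was tested on simulated data. Alternatives were other centrings, quantile normalization, a loess curve, the brightest probe set, other background levels, a pseudocount of 32, and rules of 1.5-fold and 4-fold. Python 3.11.15, numpy 2.4.6, pandas 2.3.3 and statsmodels 0.14.6 were used.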

Additional observations from a re-analysis of the deposited data

How the results depend on the processing

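Under the 8 alternatives other than the fold rule, the 2-fold rule called 2 sulfate genes higher and 0 lower. Over all genes, they called 5.17% to 5.86% higher and 3.41% to 3.84% lower. The other background levels and the brightest probe set could not change the sulfate count. SUL1 and MET28 with alpha factor are above each background level, and each sulfate gene has 1 probe set. At the 99th-percentile background SUL1 was still counted as higher, though its bound there is 1.85-fold, short of 2-fold. With a 1.5-fold rule 5 were higher, beside 12.1% of all genes, and with a 4-fold rule 0 were higher or lower, beside 1.27% of all genes higher and 1.01% lower. The median difference of the 10 genes ran from 0.54 to 0.61 over 6 alternatives. Of these, the brightest probe set could not move any sulfate gene, and each median centring adds 1 constant to every gene. With these settings counted, 59 of 60 differences of single sulfate genes moved by less than 0.19, the SD of the S. pombe probe sets. That count is therefore a weak check. The exception was SUL1, whose 1.46 became 1.04 with a pseudocount of 32, a setting that lowers the differences of dim genes by construction. MET31 changed sign to 0.01 with the S. cerevisiae median at 0, to 0.001 with the S. pombe median at 0 and to 0.03 with a loess curve removed, so that 10 in place of 9 genes were above 0. Outside the fold rules, 1 count of the other lists moved: with the pseudocount, 1 in place of 2 genes of other amino acid synthesis were higher. No paired analysis was possible because each condition has 1 array.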
